A study of Mus musculus with 22 samples.

Results

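Vascular genes were followed in RNA from CD11b+ cells of neonatal mouse brain, a preparation meant to hold microglia and macrophages. The 10 genes are well known markers of the vessel wall, 6 of endothelial cells (Cldn5, Pecam1, Flt1, Kdr, Cdh5 and Slco1a4) and 4 of mural cells (Pdgfrb, Rgs5, Kcnj8 and Notch3). They were matched by Ensembl gene ID to symbols among the 56691 genes of both count tables, and all 10 were found and passed the filter on low counts in every comparison. The rule uses no measured value, but the 10 genes were chosen with earlier results of these data known.

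All animals were CF-1 wildtype mice, and whole brains were dissociated before enrichment on magnetic beads that bind CD11b. HIE pups, for hypoxic-ischemic encephalopathy, had a dam injected with lipopolysaccharide late in gestation and were themselves exposed to a short hypoxia on P6. Saline and normoxia were the study's control exposures. The 5 groups of 4 animals were HIE at P7, Control at P8, P9, P10 and P11 (1 pup each), HIE at P14, Control at P14 and Hypoxia at P14. The labels do not say whether the dams of the Hypoxia animals received an injection. The written protocol for the early set gives P7 as the day of collection, and the early controls' day labels differ from it. The first part of an animal's name was taken as its litter, giving 2 litters of 2 animals per group, each litter in 1 treatment. All early HIE pups were labelled male, and the other groups held 2 males and 2 females. In all 22 libraries were counted for 20 animals, since 2 HIE animals at P14 had 2 libraries each, which were summed. For the 10 genes, the higher of such a pair exceeded the lower by a ratio of 1.00 to 1.21.

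Brain capillaries are tubes of endothelial cells sealed by tight junctions, and these junctions and selective transporters form the blood-brain barrier. Mural cells, pericytes on capillaries and smooth muscle cells on arterioles, lie on the outer face of the tube within a shared basement membrane. Endothelial PDGF-B attracts mural cells through the receptor PDGFRβ, and Notch ligands on endothelial cells signal to NOTCH3 on mural cells. Neither cell type is a target of CD11b beads. In bulk RNA, fewer cells of a type and less RNA per cell cannot be told apart.

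Among the endothelial genes, Cldn5 encodes the main tight junction claudin of brain vessels and lies on chromosome 16 from 18595597 to 18597012. Pecam1 (chromosome 11, 106543689 to 106641454) and Cdh5 (chromosome 8, 104828231 to 104871143) encode adhesion proteins of endothelial contacts. The VEGF receptors Flt1 (147498414 to 147662826) and Kdr (76093487 to 76139884) are both on chromosome 5. Slco1a4, on chromosome 6 from 141751165 to 141802036, encodes an organic anion transporter of the blood-brain barrier. Among the mural genes, Pdgfrb encodes the PDGF-B receptor. Rgs5 (chromosome 1, 169483036 to 169524887) encodes a regulator of G protein signalling. Kcnj8 (chromosome 6, 142510563 to 142517830) encodes the pore of an ATP-sensitive potassium channel. Notch3 (chromosome 17, 32339794 to 32385893) encodes the Notch receptor of mural cells. Positions are whole genes in GRCm39 with the GENCODE M39 annotation.

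The 250 bases before the annotated start are shown for Slco1a4 and Rgs5, the members called higher at P14 than at P7 in HIE animals, read 5′ to 3′ on each gene's strand from GRCm39. Slco1a4 is on the minus strand (chr6:141802037-141802286) and Rgs5 on the plus strand (chr1:169482786-169483035). Capitals mark the ETS core AGGAAG or its reverse complement.
Slco1a4: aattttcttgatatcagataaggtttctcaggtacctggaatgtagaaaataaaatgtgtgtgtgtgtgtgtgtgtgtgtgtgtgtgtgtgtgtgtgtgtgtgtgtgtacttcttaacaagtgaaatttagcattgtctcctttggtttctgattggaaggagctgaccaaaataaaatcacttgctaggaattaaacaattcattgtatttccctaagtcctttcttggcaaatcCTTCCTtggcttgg
Rgs5: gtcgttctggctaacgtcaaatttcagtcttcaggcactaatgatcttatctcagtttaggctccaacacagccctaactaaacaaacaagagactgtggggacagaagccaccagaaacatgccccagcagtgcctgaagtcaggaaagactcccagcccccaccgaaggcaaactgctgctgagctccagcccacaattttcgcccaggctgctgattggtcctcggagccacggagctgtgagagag
The ETS core was searched on both strands, as were TGGGAA (RBPJ) and ACGTG (hypoxia response element). It began 14 bases before the Slco1a4 start, and none of the 3 was found in the Rgs5 window. ETS cores were found in 3 of the 10 member windows (Flt1, Slco1a4 and Pdgfrb) and in 28.9% of 21751 promoters. RBPJ letters occurred in 1 member (Kdr; 22.7% of promoters) and those of the hypoxia response element in 1 (Notch3; 17%). A match is a description of letters, not evidence of a bound site.

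Total counts were 70191584 to 83469067 per library in the early set and 29751540 to 46404123 at P14, so that 3 counts, taken as the floor, equalled at most 0.0427 and 0.101 CPM. Levels are given as CPM, a gene's counts over the library's total after trimmed mean (TMM) scaling within each set (the CPM unit of edgeR), and floors cover counting error only. The 11 microglia markers found, among them P2ry12 and Cx3cr1, summed to between 14494 and 30339 CPM in 18 animals. In the 2 control pups of litter P6H63 they summed to 1442 and 2211 CPM. These 2 pups stood apart for vascular genes too, and the members and gene lists are given with and without them in comparisons with the early controls. Sex-linked transcripts did not match the label in 2 early libraries, the HIE pup N5-3 and the control pup P6H55-12. Without N5-3, and without P6H55-12, the number of the 10 genes called between early HIE and control pups stayed at 0.

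The vascular genes were present though the beads do not target their cell types, and bulk RNA does not show which cells carried them. In P14 controls the sum of the 6 endothelial genes was 453 to 770 CPM and that of the 4 mural genes 417 to 517 CPM. None of the 10 was at 0 in any animal. Summed markers of other cells in P14 controls were 1442 to 3626 CPM for astrocytes and 1075 to 3806 CPM for choroid plexus. They were 1428 to 5119 CPM for the oligodendrocyte lineage, 263 to 495 CPM for neurons and 488 to 708 CPM for fibroblasts. These lists held 8 or 10 markers each. Per kilobase of exon, mean levels in P14 controls were 83.1 CPM for Cldn5 and 58.8 CPM for Rgs5. Kdr followed at 16.7, Cdh5 at 13.4, Flt1 at 11.4, Slco1a4 at 8.72 and Pecam1 at 7.81 CPM per kilobase. Pdgfrb at 6.71, Notch3 at 6.33 and Kcnj8 at 0.883 CPM per kilobase closed the order. Neighbours in this order overlapped between animals, except that Rgs5 was wholly above Kdr and Kcnj8 wholly below Notch3. In HIE pups at P7 Cldn5 (89.4) and Rgs5 (53.7 CPM per kilobase) again led, while Slco1a4 at 3.18 was next to last, above Kcnj8 at 1.46.

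**Figure D1:**
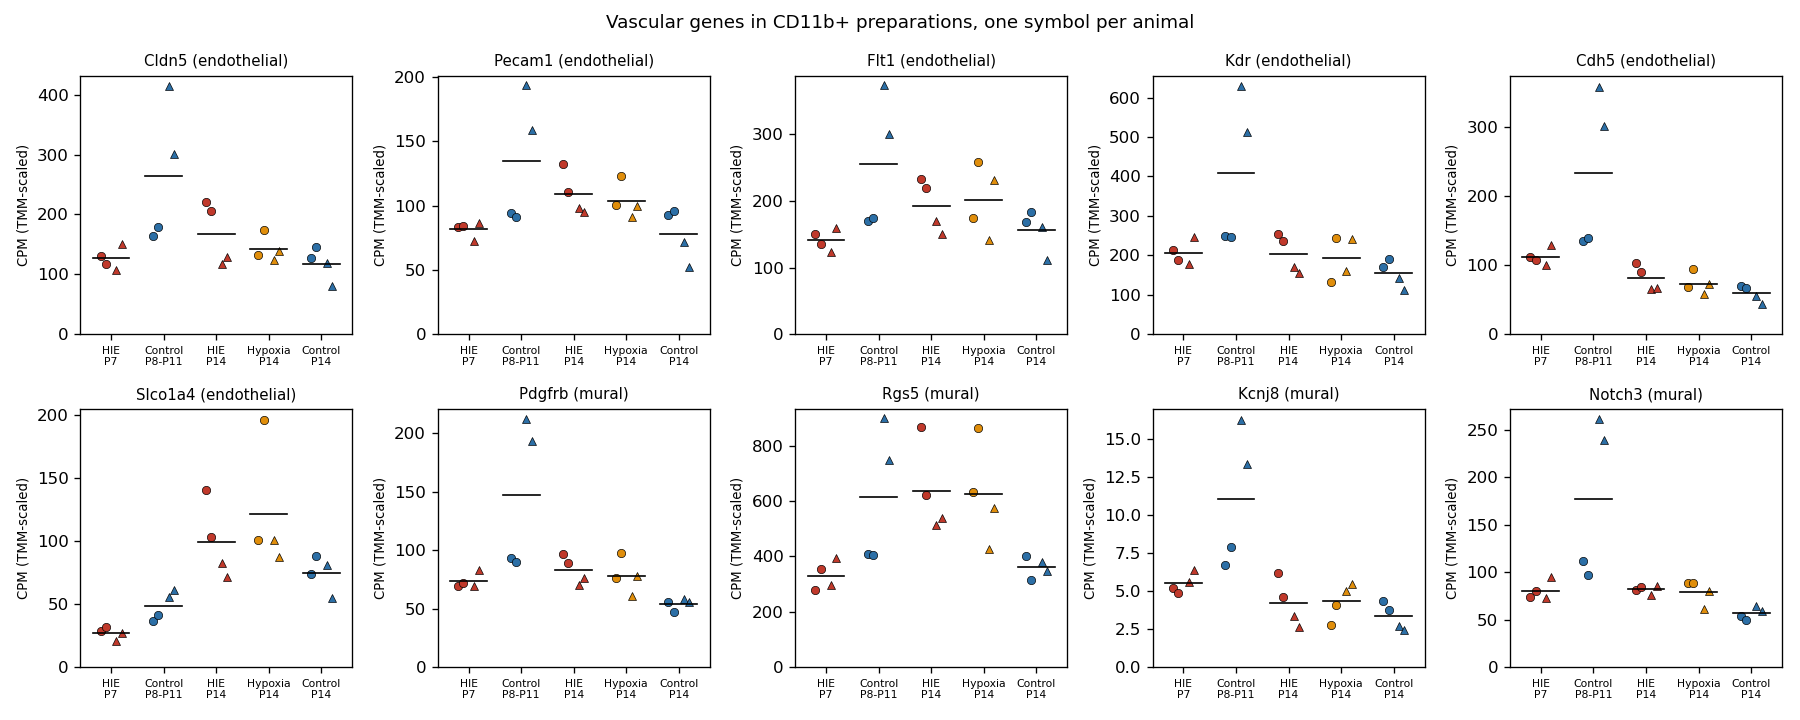
Levels of the 10 vascular genes in CPM (vertical axis, TMM-scaled within the early and the P14 set), 1 symbol per animal in 5 groups of 4, with circles and triangles for the 2 litters of a group and a line at the group mean. The 2 control triangles of litter P6H63 lie above all other early animals in each panel, at 301 and 415 CPM for Cldn5, and Slco1a4 was higher in most P14 animals than in early animals.

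The first comparison asked how vascular RNA in the preparation differed between HIE pups at P7 and the early controls. By the labels every HIE pup was P7 and every control P8 to P11, so treatment and age cannot be told apart. The name prefix differed in the same way, N in HIE pups and P6H in controls. All 10 genes had a lower mean in HIE pups, and their fitted log2 changes ran from -1.14 to -0.72. The median log2 fold change was -0.92 over the 6 endothelial and -1.0 over the 4 mural genes, against -0.082 over all genes tested. None of the 10 passed an adjusted p of 0.05 in edgeR's quasi-likelihood test (0.0666% of 22517 genes were called). Before adjustment all 10 had p under 0.05 and were lower, against 19.4% of all genes.

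Cldn5 was 130.2 and 118 CPM in HIE litter N5 and 107 and 151 CPM in litter N8. In controls it was 164 and 179 CPM in litter P6H55 and 415 and 301 CPM in litter P6H63. The groups did not overlap, and the P6H63 pups were far above the rest. The log2 fold change of Cldn5 was -1.06 (SE 0.301, edgeR adjusted p = 0.150).

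Kdr, the main signalling receptor for VEGF-A, was 212, 187, 178 and 247 CPM in HIE pups. Control pups had 249.7 and 247 CPM in P6H55 and 629 and 512 CPM in P6H63. The highest HIE pup was just above the lowest control, and Kdr was the 1 member whose groups overlapped. Its log2 fold change was -0.99 (SE 0.325, edgeR adjusted p = 0.150).

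Slco1a4 was 28.7, 31.9, 20.9 and 26.8 CPM in HIE pups. Controls had 36.9 and 41.5 CPM in P6H55 and 55.6 and 60.8 CPM in P6H63. The groups were apart, and the P6H63 pups were less extreme here than for any other member. The difference was -0.85 on the log2 scale (SE 0.194, edgeR adjusted p = 0.150).

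Of the mural genes, Rgs5 was 277, 355, 297 and 393 CPM in HIE pups. Control values were 407 and 404 CPM in P6H55 and 902 and 748 CPM in P6H63. Every HIE pup was lower, the nearest by a small margin, and the log2 fold change was -0.90 (SE 0.292, edgeR adjusted p = 0.150).

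Notch3 was 73.7, 80.3, 72.4 and 94.9 CPM in HIE pups. Controls had 112 and 96.7 CPM in P6H55 and 262 and 239 CPM in P6H63. The HIE pup nearest to the controls was N8-4, and the log2 fold change of Notch3, at -1.14, was the largest of the 10 in size (SE 0.332, edgeR adjusted p = 0.150).

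The other 5 members had the same arrangement. Pecam1 (72.5 to 86.4 CPM in HIE, 90.9 to 194 in controls), Flt1 (123 to 160.0 and 170 to 375) and Cdh5 (99.7 to 129 and 135 to 358) did not overlap between groups. Neither did Pdgfrb (69.4 to 83.1 CPM and 90.0 to 212) or Kcnj8 (4.86 to 6.39 and 6.69 to 16.3). In total 9 of the 10 had every HIE pup below every control, compared with 8.46% of genes.

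The size of the early difference followed the control litter. P6H63 exceeded P6H55 by ratios of 1.48 to 2.41 for the endothelial and 2.03 to 2.40 for the mural genes. P6H55 itself was above both HIE litters for all 10 genes, by 1.11 to 1.64 for the endothelial and 1.18 to 1.45 for the mural genes. Without P6H63 the 10 log2 fold changes shrank to between -0.53 (Slco1a4) and -0.17 (Pecam1), none was called (0.112% of genes), and 9 still did not overlap (13.3% of genes). Without the pup P6H55-7 alone all 10 were called lower, as were 15.8% of genes. Without P6H55 all 10 were called, at log2 fold changes of -1.61 to -1.07, as against 30.8% of genes called lower. DESeq2 called 9 of the 10 lower (9.10% of genes), Pecam1 being the exception. The labelled days also separate the control litters, P8 and P9 in P6H63 and P10 and P11 in P6H55, so litter and age cannot be told apart here.

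Markers of other cell types moved alongside. All 11 microglia and all 8 border-associated macrophage markers were higher in HIE pups, with median log2 fold changes of 1.11 and 0.86. All 10 astrocyte, 8 choroid plexus and 8 fibroblast markers were lower, with medians of -1.14, -1.45 and -1.36. So were all 10 neuron markers (median -0.65). Monocyte and neutrophil, platelet, red blood cell and oligodendrocyte lineage markers were mixed in direction. Summed fibroblast markers were 776 to 1116 CPM in HIE pups, 1181 to 1283 CPM in P6H55 and 3313 to 3735 CPM in P6H63, with no defining marker at 0. Without P6H63 the medians were 0.28 for microglia, -0.40 for astrocyte, -0.89 for choroid plexus and -0.23 for fibroblast markers. They were 0.11 for border-associated macrophage and -0.034 for neuron markers. Their part in the vascular result was not tested.

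Other genes of the vessel wall gave the same direction. Of 30 other endothelial genes, none passed the adjusted threshold, 29 were lower and 28 had an unadjusted p under 0.05, with a median log2 fold change of -0.94. Slc16a1, the lactate transporter of barrier endothelium, averaged 336 ± 48.8 CPM in HIE pups against 606 ± 216 CPM in controls (SD, n = 4). All 20 other mural genes were lower, 17 of them at an unadjusted p under 0.05 and none after adjustment (median -1.07). Vtn, vitronectin made by pericytes, was 73.3 ± 5.99 CPM in HIE pups and 153 ± 78.1 CPM in controls (SD, n = 4). Among 30 ligands and receptors of vessel growth 24 were lower and 6 higher. The most abundant included Tgfbr2, a TGF-β receptor that microglia also express, whose change was 0.64 on the log2 scale (SE 0.252, edgeR adjusted p = 0.164), and Notch2 at -0.018 (SE 0.122, edgeR adjusted p = 0.927). Without P6H63 these lists were closer to 0. Then 28 of the 30 endothelial genes were lower (median -0.25), 17 of the 20 mural genes (median -0.26) and 21 of the 30 ligands and receptors (median -0.20), none called, against -0.024 over all genes. Slc16a1 and Vtn were then at -0.33 and -0.25 on the log2 scale.

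A week later, with both groups labelled P14, the direction was the opposite. In HIE animals at P14 all 10 genes were higher than in P14 controls, by 0.31 to 0.81 on the log2 scale. The medians were 0.44 over the endothelial and 0.57 over the mural genes, against 0.011 over 21678 genes. No member was called by edgeR, nor was any other gene (0% called). Unadjusted, 6 of the 10 were higher at p under 0.05, 3 endothelial and 3 mural, against 3.45% of all genes.

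Rgs5 was 867 and 623 CPM in HIE litter P4H1 and 514 and 540.4 CPM in P6H12. Controls had 402 and 316 CPM in P4H4 and 380.5 and 347 CPM in P6H8. Every HIE animal was above every control. The log2 fold change was 0.81 (SE 0.207, edgeR adjusted p = 0.319).

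Pdgfrb was 96.3 and 88.7 CPM in P4H1 and 70.4 and 76.4 CPM in P6H12. Controls lay close together, at 55.9, 47.4, 58.3 and 55.6 CPM. The groups were separate, and Pdgfrb differed by 0.61 on the log2 scale (SE 0.138, edgeR adjusted p = 0.283).

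Notch3 was the steadiest member in HIE animals, with 81.0, 84.0, 76.4 and 85.8 CPM. Control values were 54.3, 49.8, 64.8 and 59.2 CPM. The groups were again separate (log2 fold change 0.52, SE 0.119, edgeR adjusted p = 0.284). With these, 3 of the 10 genes had every HIE animal above every control, compared with 2.41% of genes, and all 3 were mural. Kcnj8, the low-count mural member, overlapped, with 2.65 to 6.18 CPM in HIE animals and 2.45 to 4.36 CPM in controls.

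Every endothelial gene overlapped between the groups. Cldn5 was 220.1 and 206 CPM in P4H1 but 117 and 129 CPM in P6H12, and 127, 146, 119 and 79.7 CPM in controls. Its log2 fold change was 0.51 (SE 0.222, edgeR adjusted p = 0.496). Over the 6 endothelial genes HIE litter P4H1 exceeded P6H12 by ratios of 1.26 to 1.74. Pecam1 was 133, 110.4, 98.1 and 95.3 CPM in HIE animals and 92.7, 95.5, 71.9 and 52.2 CPM in controls, so that only the lowest HIE animal lay below the highest control. Flt1, at 0.31, had the smallest log2 fold change of the 10 (SE 0.209, edgeR adjusted p = 0.708).

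Litters of like name were compared within the P14 set, because the prefixes P4H and P6H occur in both groups. In P4H animals alone all 10 genes were separate between HIE and control (24.2% of genes), and P4H1 exceeded P4H4 by 1.29 to 1.56 for the endothelial and 1.32 to 2.08 for the mural genes. In P6H animals alone 6 were separate (17.0% of genes), and P6H12 exceeded P6H8 by 1.14 to 1.56 and 1.15 to 1.45. With the prefix as a covariate the 10 log2 fold changes were 0.30 to 0.79 and none was called. DESeq2 called 3 of the 10, Pdgfrb, Rgs5 and Notch3, as it did 0.346% of genes in that direction.

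**Figure D2:**
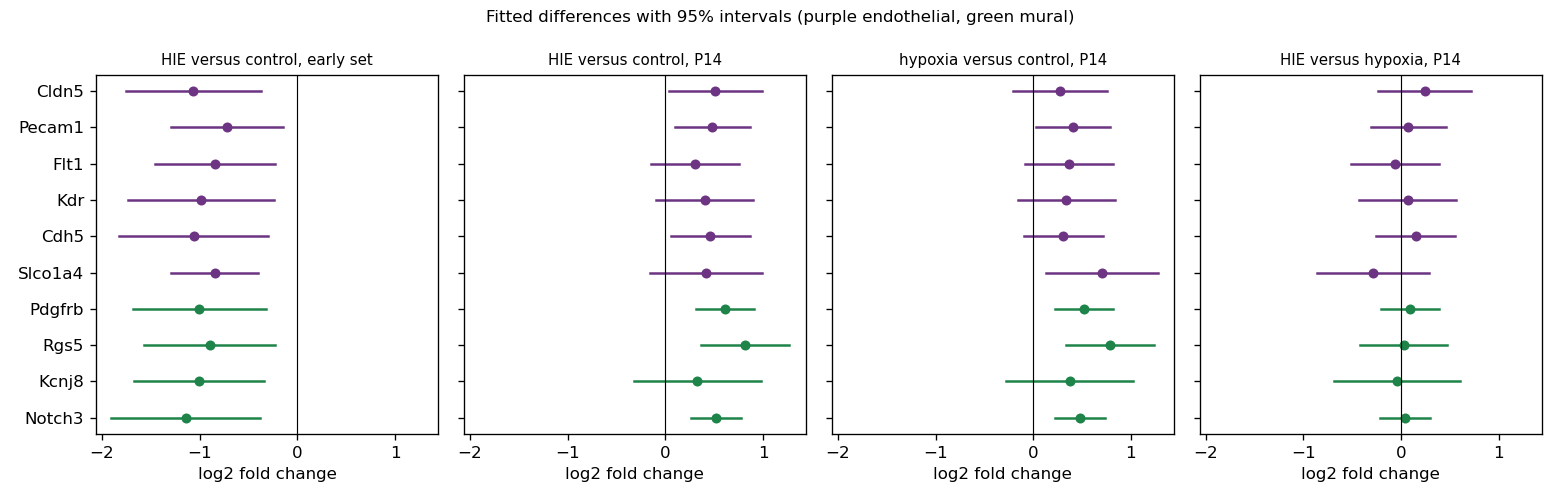
Fitted log2 fold changes of the 10 genes (horizontal axis) with 95% intervals in 4 comparisons, endothelial genes in purple and mural genes in green. All 10 lie below 0 in early HIE pups (-1.14 to -0.72) and above 0 in both treated groups at P14. In the P14 comparisons the intervals of Pdgfrb and Notch3 are the narrowest, whereas in the early comparison that of Slco1a4 is.

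Contractile genes of smooth muscle were among the other mural genes that were higher at P14, though none was called. Acta2, smooth muscle actin, was 98.1 ± 22.4 CPM in HIE animals and 57.4 ± 18.5 CPM in controls (SD, n = 4). Of 20 other mural genes 19 were higher and 15 had an unadjusted p under 0.05, with a median log2 fold change of 0.58. Zic1, a transcription factor, was the exception at -0.57 (SE 0.267, edgeR adjusted p = 0.546). All 30 other endothelial genes were higher (median 0.43), 11 of them at an unadjusted p under 0.05. Ligands and receptors were split, with 20 higher, 10 lower and a median of 0.11.

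Neuron markers ran the other way in the same animals. All 10 were lower in HIE animals, with a median log2 fold change of -0.97, and their sums did not overlap (174 to 260.2 CPM in HIE, 263 to 495 CPM in controls). All 10 oligodendrocyte lineage markers were lower too (median -0.74), as were all 6 red blood cell markers (median -1.56). Of 8 monocyte and neutrophil markers 7 were higher (median 0.78). All 8 fibroblast markers were higher (median 0.44), with sums of 660 to 973 CPM against 488 to 708 CPM. All 11 microglia (median 0.25) and all 8 choroid plexus markers (median 0.38) were higher too, and 9 of 10 astrocyte markers were lower (median -0.41). No marker of these lists was at 0, and their part in the vascular difference was not tested.

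Hypoxia animals were set against the same P14 controls. All 10 genes were higher than in the shared controls, by 0.27 to 0.79 on the log2 scale, with medians of 0.35 over the endothelial and 0.50 over the mural genes against -0.015 over all genes. None was called by edgeR, which called no gene (0%). Unadjusted, 5 were higher at p under 0.05, against 2.88% of all genes.

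Rgs5 was 633 and 864 CPM in litter P6H7 and 426 and 573 CPM in P6H9, each above the highest control at 402 CPM. Its log2 fold change was 0.79 (SE 0.207, edgeR adjusted p = 0.375). Pdgfrb was 76.2, 97.3, 61.0 and 77.5 CPM, also above every control (log2 fold change 0.52, SE 0.138, edgeR adjusted p = 0.375). These 2 of 10 were the members whose groups did not overlap, compared with 2.13% of genes.

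Notch3 was 89.0, 88.5, 61.0 and 79.8 CPM in Hypoxia animals, the lowest of which fell below the highest control. The log2 fold change was 0.48 (SE 0.119, edgeR adjusted p = 0.375). Slco1a4 was 101 and 196 CPM in P6H7 and 101 and 87.4 CPM in P6H9. Controls had 73.7, 87.8, 81.1 and 54.5 CPM. The animal P6H7-8F was far above its group, and the lowest Hypoxia animal was just under the highest control. The log2 fold change of Slco1a4 was 0.71 (SE 0.266, edgeR adjusted p = 0.438), and without that animal it was 0.37.

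With the prefix as a covariate the 10 log2 fold changes were 0.43 to 0.94, Cldn5 moving from 0.27 to 0.60, and none was called. DESeq2 called 2 of the 10, Rgs5 and Notch3 (0.180% of genes). All Hypoxia animals carry the prefix P6H, and against the P6H controls alone 7 of the 10 were separate (6.84% of genes). Of the other vascular genes, 29 of 30 endothelial genes were higher (median 0.36) and 18 of 20 mural genes (median 0.54), none called. Acta2 stood at 112 ± 33.7 CPM (SD, n = 4). Neuron markers were lower here as well, all 10 of them, with a median of -0.73. So were all 6 red blood cell markers (-1.40), all 10 astrocyte markers (-0.66), all 10 oligodendrocyte lineage markers (-0.49) and all 8 choroid plexus markers (-0.52). Of the 8 monocyte and neutrophil markers 6 were higher (0.56). Their part in the vascular difference was not tested.

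HIE and Hypoxia animals were then compared with each other at P14, and 0 of the 10 genes were called (0% of genes). Log2 fold changes ran from -0.29 for Slco1a4 to 0.24 for Cldn5, and the unadjusted p was under 0.05 for none of the 10, against 4.16% of genes higher and 1.61% lower. The 95% interval was -0.22 to 0.30 for Notch3 and -0.21 to 0.39 for Pdgfrb. It was wider for Rgs5 (-0.42 to 0.47), Cldn5 (-0.24 to 0.72) and Slco1a4 (-0.86 to 0.29). Each interval holds the differences that remain compatible with the data of 4 animals a group, so equal levels were not shown. With the name prefix as a covariate the sign turned for Cldn5, Pecam1, Kdr, Cdh5 and Rgs5, at -0.13, -0.17, -0.24, -0.12 and -0.11. Among markers of other cells, all 8 choroid plexus markers were higher in HIE than in Hypoxia animals (median 0.87) and all 10 neuron markers lower (median -0.20), none called. Their part in the vascular values was not tested. HIE and Hypoxia were each set against the same 4 controls, so the resemblance of their 2 profiles is no independent evidence.

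The next question was how the genes differed between P14 and the early days. Age and count table cannot be told apart in these contrasts, and both tables were fitted together. In HIE animals 2 of the 10 were called, against 35.7% of 24504 genes. Both were higher at P14, as were 18.7% of genes. Slco1a4 rose the most, from 20.9 to 31.9 CPM at P7 to 141, 103, 82.9 and 71.3 CPM at P14, with no overlap. Its log2 fold change was 1.96 (SE 0.264, edgeR adjusted p = 1.9e-05). Rgs5 rose by 1.02 (SE 0.261, edgeR adjusted p = 0.0051), its lowest P14 value of 514 CPM lying above the highest P7 value of 393 CPM.

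The median log2 fold change was 0.50 over the endothelial and 0.18 over the mural members, against 0.036 over all genes. The other 8 members were not called in HIE animals. Their log2 fold changes ran from -0.38 for Cdh5 to 0.52 for Flt1, and Pecam1 was the further member without overlap (3 of 10 in all, against 17.0% of genes; edgeR adjusted p = 0.0867). Leaving out either early control litter brought the count to 4, with Pecam1 and Flt1 added (22.1% of genes called higher without P6H63 and 22.6% without P6H55). When the animals of a litter were summed, Slco1a4 remained called and Rgs5 did not.

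Smooth muscle genes rose most among the other mural genes in HIE animals, where 9 of 20 were called higher and 1 lower, against 18.7% and 17.0% of all genes. Myh11, smooth muscle myosin, was 11.1 ± 1.96 CPM at P7 and 81.1 ± 18.5 CPM at P14 (SD, n = 4; log2 fold change 2.94, SE 0.354, edgeR adjusted p = 5.5e-06). Myl9 rose by 2.21 and Tagln by 2.04 on the log2 scale. Anpep, the aminopeptidase CD13 of pericytes, fell by 1.14, from 28.3 ± 4.22 to 12.2 ± 0.495 CPM (SD, n = 4). Of 30 other endothelial genes 8 were called higher and none lower, against the same shares of all genes, led by Ly6c1 (1.54), the efflux pump gene Abcb1a (1.3) and the phosphatase gene Ptprb (1.04). Of the ligands and receptors 4 were called higher, among them Angpt2 (by 1.38), Pdgfd (by 1.10) and Jag1 (by 0.86). Another 5 were called lower, among them Vegfb (by 1.42), Tgfb1 (by 1.36) and Nrp2 (by 0.71). These counts of 4 and 5 among 30 were near the shares of all genes. Markers of other cells differed between these HIE groups as well. The median log2 fold change was 4.57 over 6 red blood cell markers (3 called higher, 1 lower) and 1.43 over 10 oligodendrocyte lineage markers (6 called higher). It was 0.96 over 8 monocyte and neutrophil markers (1 called higher) and 0.79 over 8 choroid plexus markers (2 called higher). Their part in the vascular values was not tested.

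In controls all 10 genes were called between P14 and the early days, as were 48.1% of all genes. With litters summed 5 were called (17.7% of genes). With single animals left out 7 to 10 were called, along with 9760 to 12753 of all genes. Slco1a4 again rose, by 0.68 (SE 0.257, edgeR adjusted p = 0.037), as did 22.0% of genes. That call was lost with library size alone (0.48), with no filter on low counts (0.64), with litter sums (0.66), without P6H55 (0.42) and without any 1 of the control animals P4H4-8M, P6H8-8F, P4H4-7F, P6H55-7 and P6H55-12 (0.57 to 0.68). The other 9 fell, as did 26.0% of genes. The medians were -0.91 over the endothelial and -1.47 over the mural genes. The falls were largest for Cdh5 (by 1.92), Kcnj8 (by 1.66) and Notch3 (by 1.57) and least for Flt1 (by 0.64). This contrast leaned on litter P6H63. Without it 5 were called (35.5% of genes), Slco1a4 higher at 1.01 and Cdh5, Kcnj8, Notch3 and Pdgfrb lower at -1.13, -1.04, -0.79 and -0.67. Rgs5 and Flt1 were then at -0.084 and -0.056.

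Of the other mural genes in controls, Myh11 rose by 0.85 (edgeR adjusted p = 0.041), the only 1 of 20 called higher. Another 13 were called lower, led by Anpep (by 2.07), Foxf2 (by 2.06) and Tbx18 (by 1.79). Foxf2 and Tbx18 are mural transcription factors. Of 30 other endothelial genes 21 were called lower, led by Sox18 (by 2.07), Foxq1 (by 1.73) and Plvap (by 1.72), the last a gene of fenestrated endothelium. Pdgfb, the endothelial ligand of PDGFRβ that microglia also express, was the 1 ligand called higher (by 0.63). Of the 30 ligands and receptors 21 were called lower. All 8 fibroblast markers were called lower as well (median -1.66), and 7 of 11 microglia markers were called higher (median 1.39). Of all genes tested 22.0% were called higher and 26.0% lower. Without P6H63 the counts were 1 higher and 8 lower of the other endothelial genes (median -0.24), 4 higher and 6 lower of the other mural genes (median -0.092) and 1 higher and 9 lower of the ligands and receptors (median -0.30). The shares of all genes were then 16.4% called higher and 19.2% lower. Pdgfb was then not called (0.31). All 8 fibroblast markers were still lower (median -0.54), 4 of them called. Of the 11 microglia markers 6 were called higher and 1 lower (median 0.57). Myh11 was then called at 1.71. Sox18, Foxq1 and Plvap were called at -1.28, -1.09 and -1.46, and Anpep, Foxf2 and Tbx18 at -1.38, -1.31 and -0.94.

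The difference between the HIE effects at P14 and in the early set was tested as an interaction. It was positive for all 10 genes, from 1.16 for Flt1 to 1.72 for Rgs5, the sign change from lower to higher described above. The early HIE pups were labelled P7 and their controls P8 to P11, so the sign change and that age gap cannot be told apart. Adjusted p in edgeR's test was 0.0721 for Pdgfrb, Rgs5 and Notch3 and up to 0.151 (Kcnj8), so 0 of the 10 were called (0% of 24504 genes). Unadjusted, all 10 had p under 0.05, against 10.3% of genes in that direction. DESeq2 called 8 of the 10 (2.37% of genes), all but Flt1 and Kcnj8. Without litter P6H63 the estimates fell to between 0.56 and 1.09 and none was called (0% of genes). Without P6H55 all 10 were called (15.6% of genes), at 1.53 to 2.17, and leaving out single control pups gave 10 calls without P6H55-7 (5.04% of genes) and 8 without P6H55-12 (2.79% of genes).

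Endothelial and mural genes were next compared within each animal, by the mean log2 CPM of the 6 and of the 4 genes. Both means moved together between groups. The endothelial mean was 6.61 ± 0.163 in HIE at P7 and 7.45 ± 0.583 in early controls, 7.03 ± 0.338 in HIE at P14, 7.00 ± 0.302 in Hypoxia and 6.61 ± 0.331 in P14 controls (SD, n = 4 each). The mural mean was 5.83 ± 0.159 and 6.74 ± 0.647 in the early groups, then 6.00 ± 0.261 in HIE, 5.97 ± 0.210 in Hypoxia and 5.45 ± 0.110 in controls at P14.

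The difference, mural minus endothelial, changed little with treatment. It was -0.78 ± 0.135 in HIE at P7 and -0.71 ± 0.075 in early controls. At P14 it was -1.03 ± 0.092 in HIE, -1.03 ± 0.116 in Hypoxia and -1.16 ± 0.309 in controls (SD, n = 4). The ranges of the treated and control groups overlapped at both ages, and the P14 controls were widely spread both between and within litters, at -1.18 and -1.54 in P4H4 and -1.13 and -0.78 in P6H8. Litter P6H63, highest for both means at 7.95 and 7.30, had a difference of -0.65, close to the -0.68 of HIE litter N8. These are means of unlike genes, and only their change between animals can be read.

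**Figure D3:**
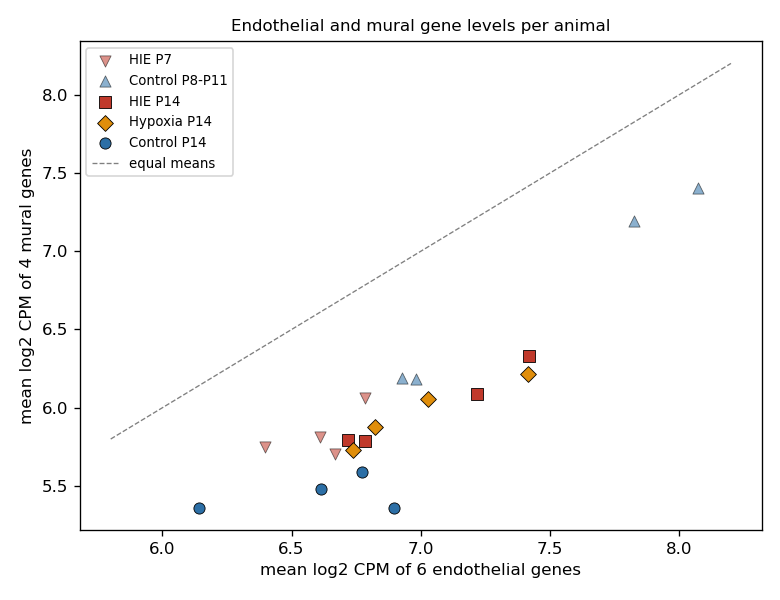
Mean log2 CPM of the 6 endothelial genes (horizontal axis) against that of the 4 mural genes (vertical axis) in 20 animals, with a dashed line where both would be equal. The 2 control pups of P6H63 lie apart at the upper right, near 7.95 and 7.30, and the 4 P14 control animals have the 4 lowest mural means, up to 5.59.

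Ratios between genes of 1 cell type were then taken within each animal. Slco1a4 to Cldn5 was 0.216 ± 0.040 in HIE at P7 and 0.198 ± 0.045 in early controls, then 0.601 ± 0.093, 0.832 ± 0.210 and 0.638 ± 0.053 in HIE, Hypoxia and Control at P14 (SD, n = 4). Early values reached 0.270 at most and P14 values began at 0.5, so the ages did not overlap, P6H63 included. Cdh5 to Cldn5 moved down, from 0.886 ± 0.040 and 0.864 ± 0.096 in the early groups to 0.494 ± 0.057, 0.510 ± 0.032 and 0.506 ± 0.050 at P14. Within either age the treatment groups overlapped for both ratios. Relative to this tight junction gene, the transporter was thus higher and the cadherin lower at P14.

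Mural genes were also unequal across age. Rgs5 to Notch3 was 4.10 ± 0.273 in HIE at P7 and 3.6 ± 0.442 in early controls, and 7.78 ± 2.0, 7.76 ± 1.33 and 6.37 ± 0.726 in HIE, Hypoxia and Control at P14. All P14 animals, from 5.87 upward, were above all early animals, up to 4.42. Kcnj8 to Rgs5 was 0.017 ± 0.0024 and 0.018 ± 0.0012 early and 0.0065 ± 0.0011, 0.0076 ± 0.0037 and 0.0093 ± 0.0025 at P14, again without overlap between the ages. Rgs5 to Cldn5, across the cell types, overlapped between the ages, with group means of 2.35 to 2.63 early and 3.23 to 4.33 at P14. A ratio shows unequal change and does not tell which gene of the pair changed, and no test was made on it.

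**Figure D4:**
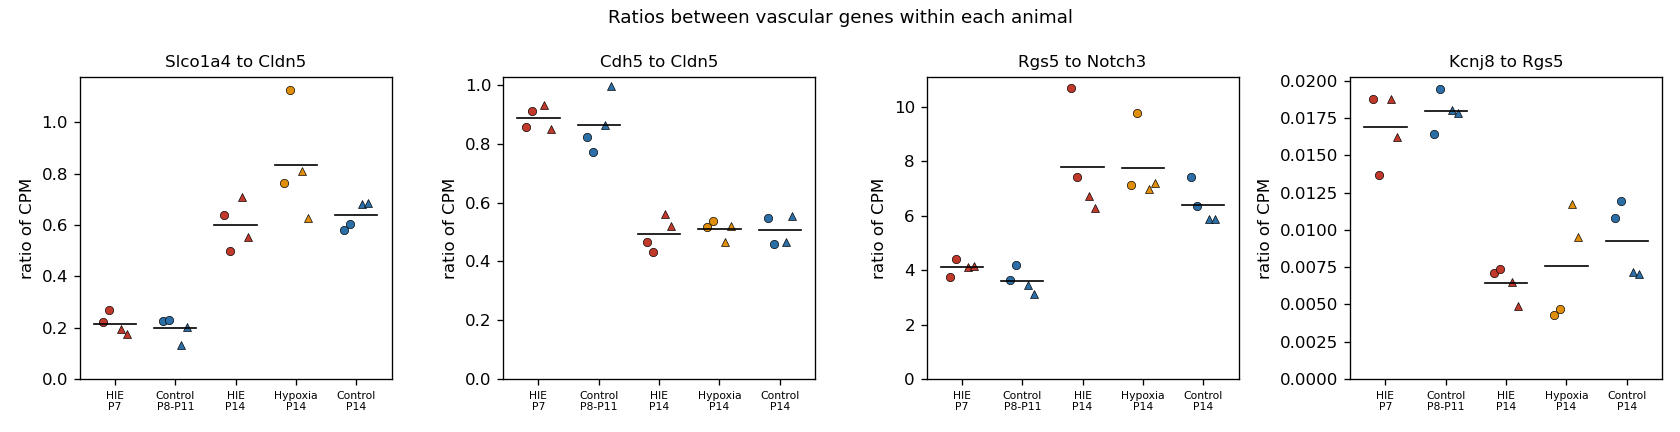
Ratio of CPM (vertical axis, from 0) between pairs of vascular genes within each animal, 1 symbol per animal with circles and triangles for the 2 litters of a group and a line at the mean of 4 animals. Slco1a4 to Cldn5 and Rgs5 to Notch3 lie higher at P14 than in all early animals, and Cdh5 to Cldn5 and Kcnj8 to Rgs5 lie lower.

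Across the 12 P14 animals the log2 CPM of endothelial genes varied together, with Pearson correlations of 0.71 to 0.95 (median 0.86) over 15 pairs. Mural pairs ranged from 0.050 to 0.98 (median 0.64, 6 pairs) and pairs of 1 endothelial and 1 mural gene from 0.35 to 0.82 (median 0.67, 24 pairs). The animals share 6 litters, 3 treatments and 1 scaling, so these values are descriptions. Of 16887 genes with a mean of at least 1 CPM, the 5 most like Cldn5 over the 12 animals were Bsg, Ramp2, Tie1, Hspa12b and Aplnr, with correlations of 0.98 to 0.96. The 5 most like Rgs5 were Col18a1, Msrb3, Cavin1, Podxl and Fbln2, at 0.98 to 0.95. Over the 8 early animals, which played no part in the ranking, the correlations of these 10 genes with Cldn5 or Rgs5 were 0.95 to 0.99. The P6H63 pups were far above the other early animals for Cldn5 and Rgs5. The share of all genes with early correlations this high is not given, so these values are descriptions too.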

How the data were processed

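CD11b+ brain cells of 20 mice were profiled by total RNA sequencing with a stranded, rRNA-depleted kit. According to the methods and the submitters' processing notes, the authors aligned reads to GRCm39 with STAR and deposited RSEM expected counts per gene, in separate tables for the early and the P14 animals. The strand setting of the counting is not given in the sources used here. Expected counts were rounded, libraries of 1 animal were summed, and 56017 of 56691 gene IDs matched GENCODE M39. Genes were filtered by filterByExpr and scaled by TMM, and edgeR (version 4.0.16, under R 4.3.3) compared groups by its quasi-likelihood test. P-values were adjusted by Benjamini-Hochberg over all genes tested, and a gene was called at an adjusted p under 0.05. SE was the log2 fold change divided by the root of F. The 8 early animals, the 12 P14 animals and, for contrasts of age and the interaction, all 20 animals were fitted together. DESeq2 1.42.0, other scalings, other filters, litter sums, left-out litters and left-out animals were alternatives. The log2 CPM used a prior count of 2. P-values measure the spread between animals, which share litters. Scripts were tested on simulated data. Beyond the members, each vascular list gave up to 3 genes with the largest and 3 with the smallest called changes, or its 3 most abundant where none was called. The members and lists were chosen with earlier results of these data known.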

Additional observations from a re-analysis of the deposited data

Results flagged for a closer look

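Slco1a4 in the Hypoxia animal P6H7-8F was 196 CPM at P14, far from the 87.4, 101 and 101 CPM of the other 3 animals of its group. It was marked because its gap to the nearest animal took up more of the group's whole range than the 95% critical value for 4 samples allows. Chance alone marks about 1 in 20 groups, and 65 sets of values were examined. The Rgs5 value of 864 CPM was also the highest of the Hypoxia group in this animal. Without it the log2 fold change of Slco1a4 between Hypoxia and control animals was 0.37. The cause was not tested.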

How the results depend on the processing

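Each comparison was recomputed under up to 15 other settings and without each animal in turn. The members' log2 fold changes kept direction and side of the threshold in 1627 recomputations, gained a call in 74, lost one in 34 and turned sign in 35. Where a value moved, the cause was not tested. No paired analysis was possible because the replicate numbers only name animals in accession order and each litter is in 1 treatment. Both early comparisons with controls rest on 2 control litters that differ, and sums over litters leave 2 values a group. All 10 genes stood above the floor of 3 counts in every animal.

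Under DESeq2, members called were 9 for early HIE, 3 for HIE and 2 for Hypoxia at P14, and 8 for the interaction, with 3024, 239, 128 and 700 of all genes, and 22 genes between HIE and Hypoxia. With litters summed, 0 genes were called for early HIE and 1 between HIE and Hypoxia. Across age, litter sums left 1 member and 3170 genes in HIE animals and 5 members and 4782 genes in controls. Without P6H63, 26 genes were called for early HIE, 4 members across age in HIE animals and 5 in controls. Without P6H55, 10 members and 13904 genes were called for early HIE, 4 members across age in HIE animals, and 10 members and 7424 genes for the interaction.

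At P14, genes called without a filter were 2 for HIE and 1 for Hypoxia, and the bias-adjusted fit gave 1 for Hypoxia. P4H animals alone gave 15 for HIE. Fits of only the groups compared gave 1 for HIE, 2 for Hypoxia and 2 between them. Members with every treated animal higher were 6 in P6H (17.0% of genes) and 10 in P4H animals (24.2% of genes) for HIE. For Hypoxia they were 7 in P6H animals (6.84% of genes). In P6H animals 1 member, Slco1a4, was lower in every HIE than every Hypoxia animal, as were 6.57% of genes.

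Signs turned mainly between HIE and Hypoxia. Rgs5 was -0.020 with library size alone and -0.019 with litter sums. With the prefix as covariate Cldn5 was -0.13, Pecam1 -0.17, Kdr -0.24, Cdh5 -0.12 and Rgs5 -0.11. In P6H animals Cldn5 was -0.21, Pecam1 -0.10, Kdr -0.26, Cdh5 -0.14, Pdgfrb -0.088 and Rgs5 -0.24. Kdr across age in HIE animals was -0.031 with sex as covariate.

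With single animals left out, members called ranged from 0 to 10 for early HIE and for the interaction, with 10 to 5588 and 0 to 1692 genes. Genes called ranged from 0 to 4 for HIE, 0 to 2 for Hypoxia and 0 to 2 between them. Between HIE and Hypoxia, log2 fold changes ranged from -0.22 to 0.083 for Flt1, -0.29 to 0.13 for Kcnj8, -0.077 to 0.20 for Kdr, -0.095 to 0.10 for Notch3, -0.040 to 0.21 for Pdgfrb, -0.034 to 0.17 for Pecam1, -0.16 to 0.23 for Rgs5 and -0.50 to 0.047 for Slco1a4. For Kdr across age in HIE animals they ranged from -0.062 to 0.17.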
